A study of Mus musculus with 4 samples.

Results

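PRDM16 is a zinc-finger transcription factor that directs preadipocytes towards the thermogenic fate of brown and beige fat. The open chromatin of its gene was examined together with that of 5 others, its close relative Mecom and genes whose products act with PRDM16. The regions were all ATAC-seq peaks whose summit, the base of highest signal, lay in the gene body or within 50 kb of any annotated transcription start site (TSS) of Prdm16, Mecom, Ehmt1, Ctbp1, Ctbp2 or Zfp516. There were 272 such peaks in 4 peak lists, of 239709 in all. Peaks of different lists that shared at least 1 bp were joined into 1 site, which gave 121 sites at the 6 genes of 100904 in the genome. Mecom had 37 sites, Prdm16 24, Ctbp2 19, Ehmt1 17, Zfp516 15 and Ctbp1 9.

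The assay uses the Tn5 transposase, which cuts and tags DNA where chromatin is accessible. It was run on im-scWAT cells, a line made by immortalising the stromal vascular cells of subcutaneous white fat with the SV40 large T antigen. The WT line came from Jmjd1a+/+ mice and the HY line from Jmjd1a HY/HY mice, both 5 weeks old. In the HY mice a histidine-to-tyrosine change takes away the activity of JMJD1A, a demethylase of histone H3 lysine 9. D0 cells were taken before differentiation. D8 cells had received indomethacin, dexamethasone, 3-isobutyl-1-methylxanthine, rosiglitazone, insulin and T3 for 2 days, followed by 6 days of insulin, T3 and rosiglitazone, which carries them to beige adipocytes. There was 1 library for each of the 4 combinations of genotype and day, so every difference is one between libraries, no test of the conditions was run, and genotype cannot be told apart from cell line.

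PRDM16 acts through partners. With the co-repressors CTBP1 and CTBP2 it lowers genes of white fat, and EHMT1, a histone H3 lysine 9 methyltransferase, is part of its complex in brown fat. MECOM (EVI1, PRDM3) is the close relative of PRDM16 in the same family of PR domain proteins, and ZFP516 is a cold-induced activator of Ucp1 that binds PRDM16. ATAC-seq shows whether DNA at these genes was accessible and not whether the genes were transcribed.

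The sites on which the results at Prdm16 and Mecom turn are shown first, as the 100 bp on each side of the summit on the forward strand of mm9. They are the Prdm16 intron site with higher signal at D8 in both genotypes (chr4:153871284-153871484), the strongest Prdm16 site found at D0 only (chr4:153799370-153799570), the Prdm16 sites with the highest signal among those found at D8 only, which lie upstream of the gene (chr4:154036668-154036868) and in its introns (chr4:153955445-153955645 and chr4:153904674-153904874), and a Mecom intron site found at D8 only (chr3:30265748-30265948). Capitals mark a match to 1 of 6 motifs searched on both strands, here TGANTCA of AP-1 and TTGCNNAA of C/EBP, and the other 4 sequences held no match.
Prdm16 +140 kb, higher at D8: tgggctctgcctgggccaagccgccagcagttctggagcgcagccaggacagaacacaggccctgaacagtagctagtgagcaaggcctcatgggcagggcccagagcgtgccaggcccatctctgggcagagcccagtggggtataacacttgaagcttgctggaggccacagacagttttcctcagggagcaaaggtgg
Prdm16 +212 kb, D0 only: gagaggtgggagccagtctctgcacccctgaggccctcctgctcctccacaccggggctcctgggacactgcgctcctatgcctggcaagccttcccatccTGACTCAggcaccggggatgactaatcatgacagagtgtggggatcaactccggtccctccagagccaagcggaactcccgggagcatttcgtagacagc
Prdm16 -25.8 kb, D8 only: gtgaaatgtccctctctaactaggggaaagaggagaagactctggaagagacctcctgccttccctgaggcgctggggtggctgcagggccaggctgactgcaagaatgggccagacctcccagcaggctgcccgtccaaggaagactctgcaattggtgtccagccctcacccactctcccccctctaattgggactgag
Prdm16 +55.4 kb, D8 only: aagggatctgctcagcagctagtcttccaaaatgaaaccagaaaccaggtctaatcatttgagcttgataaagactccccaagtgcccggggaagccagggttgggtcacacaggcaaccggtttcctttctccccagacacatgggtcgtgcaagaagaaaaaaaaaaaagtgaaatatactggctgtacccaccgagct
Prdm16 +106 kb, D8 only: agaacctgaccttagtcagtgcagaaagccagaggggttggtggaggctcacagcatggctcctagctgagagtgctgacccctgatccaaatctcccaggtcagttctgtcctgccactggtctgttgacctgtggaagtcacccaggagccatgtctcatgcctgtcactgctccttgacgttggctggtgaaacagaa
Mecom +181 kb, D8 only: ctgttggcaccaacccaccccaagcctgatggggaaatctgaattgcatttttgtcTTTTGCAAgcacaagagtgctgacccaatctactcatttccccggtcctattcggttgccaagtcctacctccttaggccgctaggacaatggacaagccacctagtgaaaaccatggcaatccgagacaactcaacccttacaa

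Signal is given as the summit pileup, the number of overlapping tags at the summit, or as the scaled pileup, which is the pileup divided by the background rate of its library and so is comparable between depths. Background rates were 0.659 at D0 and 0.531 at D8 in WT, and 0.708 and 0.494 in HY, so that D8 libraries had 0.806 (WT) and 0.698 (HY) of the depth of D0. The lists held from 41228 to 77994 peaks, the lowest pileup called was 4 or 5 and median peak width was 262 bp, 230 bp, 279 bp and 233 bp in the same order. Folds carry exact 95% intervals conditional on the summed pileup, pileups exact Poisson intervals and shares exact Clopper-Pearson intervals, all for counting error only. A site with no peak in a library was below the calling threshold there, its pileup is unknown, and no fold is given. Over all sites open on both days the median scaled fold of D8 over D0 was 0.896 in WT (log2 -0.16) and 0.884 in HY (log2 -0.18), and at D8 the median of HY over WT was 1.11 (log2 0.15). Promoter peaks were found at more of the adipocyte markers, from 4 of 8 at D0 to 8 of 8 at D8 in both genotypes. Those at preadipocyte or fibroblast markers went from 6 of 6 to 2 of 6 in WT and from 4 of 6 to 2 of 6 in HY. Endothelial markers had a promoter peak for 3 of 4 genes at D0 and 0 at D8 in WT and for 2 and 1 in HY. Neuron markers had one for 1 of 3 genes in WT and 2 in HY at D0 and for 0 at D8, and none of the 4 annotated immune and 4 muscle markers had one in any library. The part of other cell types in the results was not tested, and in bulk nuclei fewer cells with an open site and less access per cell cannot be told apart.

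Most sites at the 6 genes were seen at D0, and few were seen at D8 alone. At 24 sites (19.8%) a peak was called in all 4 libraries, against 24.2% of all sites. At 28 sites (23.1%) both genotypes had a peak at D0 and neither at D8, called closed in both genotypes here, against 24.6% of all sites. The reverse, opened in both genotypes, held for 8 sites (6.61%, interval 2.90 to 12.6), against 6.00% of all sites. These shares lay close to the genome's. Prdm16 held 5 of the 8 opened sites, 20.8% of its own sites (interval 7.13 to 42.2). Mecom held 2, Ehmt1 held 1 that lies beside the TSS of its neighbour Zmynd19, and Ctbp1, Ctbp2 and Zfp516 held none. The intervals of the 6 genes overlap. Closed sites were found at all 6 genes, with 8 each at Prdm16 and Mecom, 6 at Ctbp2, 4 at Ehmt1 and 1 each at Ctbp1 and Zfp516. Those last 2 genes had 0 within 10 kb of a TSS or in the gene body, and 3 and 2 at a −log10 q of at least 5.

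**Figure D1:**
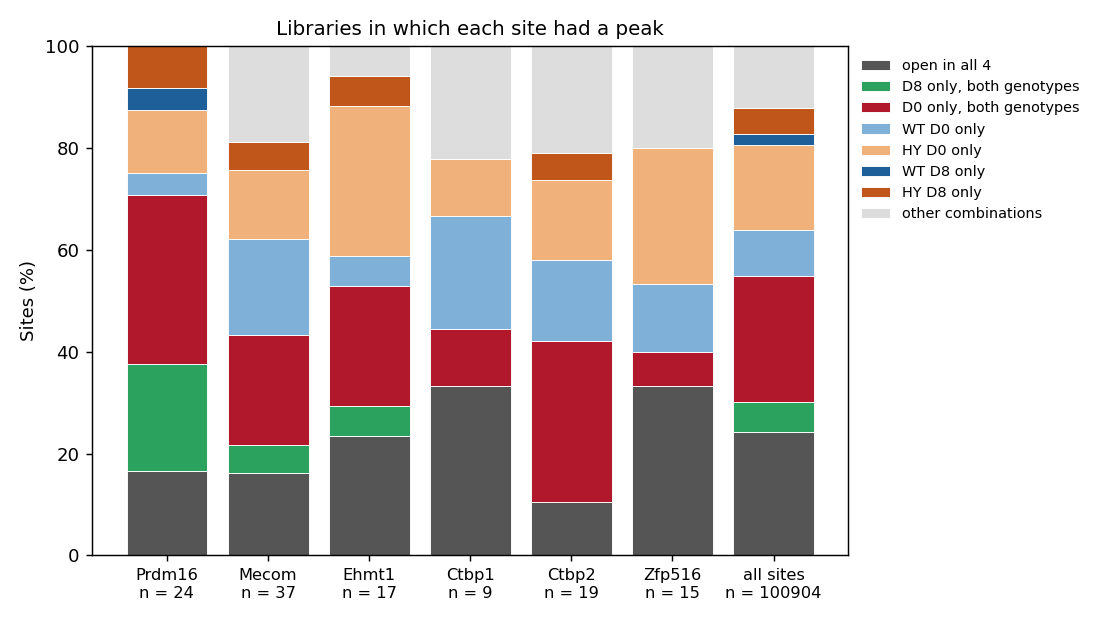
Share of sites (%) by the libraries in which a peak was called, for each of the 6 genes and for all 100904 sites of the genome, with the number of sites under each bar. Green, sites with a peak at D8 only in both genotypes, took 20.8% of the sites at Prdm16 and 6.00% of all sites, and is missing from the bars of Ctbp1, Ctbp2 and Zfp516.

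Of the 82 sites with a WT D0 peak, 55 (67.1%, interval 55.8 to 77.1) had no WT D8 peak, against 60.0% of all WT D0 sites. In HY the same held for 53 of 88 (60.2%, interval 49.2 to 70.5), against 57.1%. The sites lost had low signal at D0, with a median pileup of 10 in both genotypes, whereas those kept had medians of 23 in WT and 24 in HY. Of the 55 sites lost in WT, 18 would still have had a pileup of at least 10 at the depth of the D8 library, as would 15 of the 53 in HY. With every list cut to its 41228 strongest peaks, the length of the shortest, 47.4% of WT D0 sites and 37.8% of HY D0 sites had no D8 peak. Under this cut 11 sites instead of 28 were closed in both genotypes, while 9 were opened in both. No share over all sites stands beside these values, and the 60.0% and 57.1% above are from the uncut lists.

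In the other direction, 11 of 38 WT D8 sites (28.9%) had no WT D0 peak, against 25.7% of all WT D8 sites, and 16 of 51 HY D8 sites (31.4%) had no HY D0 peak, against 27.1%. At Prdm16 these were 6 of 10 sites in WT (60.0%, interval 26.2 to 87.8) and 7 of 11 in HY (63.6%, interval 30.8 to 89.1). At Ctbp1 and Zfp516 no D8 site of either genotype was without a D0 peak.

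Few of the sites open on both days changed by 2-fold or more. In WT, 2 of 27 were at least 2-fold higher at D8, with 4.79% of all such sites doing so, and 2 of 27 were at least 2-fold lower, with 14.7% of all sites doing so. In HY, 4 of 35 were higher, against 5.28%, and 4 of 35 lower, against 17.2%. Among the 24 sites with a peak in all 4 libraries, 9 had a higher scaled pileup at D8 in both genotypes, 12 a lower one in both, and 3 moved in opposite directions. No share over all sites stands beside these counts. The median scaled fold over all sites open on both days was 0.896 in WT and 0.884 in HY. The counts depend on the scaling, with 3 higher in both, 15 lower in both and 5 opposite in unscaled pileup. They were 14, 4 and 6 when scaled by the median at sites open in all libraries, and 4, 12 and 8 on the deposited fold enrichment. The deposited fold enrichment divides by the local background of each peak after a constant is added to both pileup and background. On it no site was 2-fold higher in either genotype and 2 were 2-fold lower, both in HY.

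**Figure D2:**
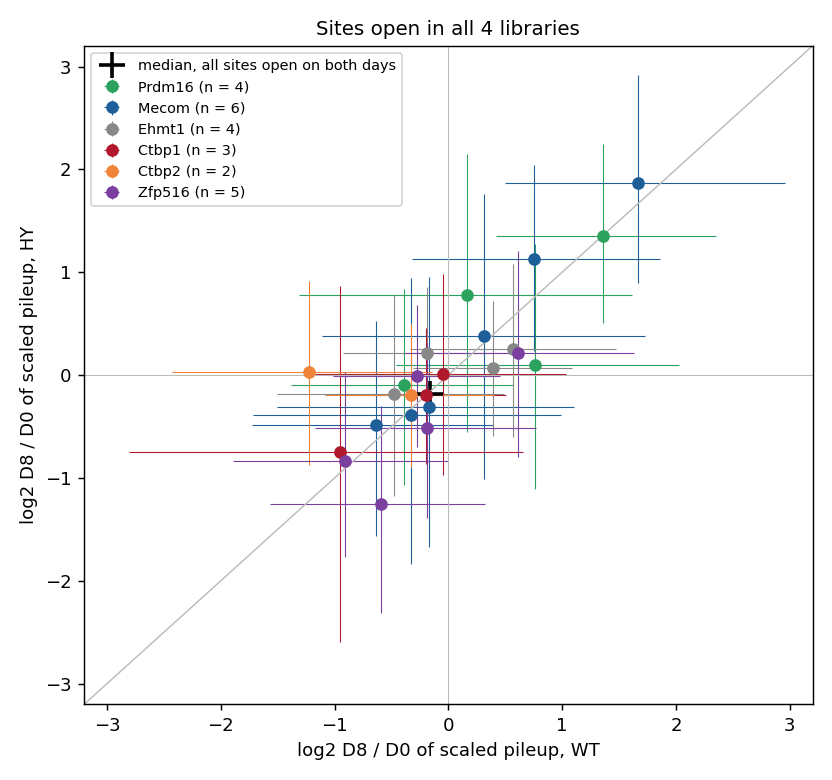
log2 of the D8 over D0 scaled pileup in WT (x axis) and in HY (y axis) for the 24 sites with a peak in all 4 libraries, coloured by gene, with exact 95% intervals for counting error, and the median over all sites open on both days as a cross. A Mecom site (3.17-fold in WT and 3.64-fold in HY) and a Prdm16 site (2.57-fold and 2.56-fold) lie farthest to the upper right, and a Ctbp2 site (0.428-fold in WT and 1.02-fold in HY) lies farthest from the diagonal on the left.

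More D8 sites had a peak in HY alone than in WT alone, as over the whole genome. Of 56 sites open at D8 in either genotype, 18 (32.1%, interval 20.3 to 46.0) had a peak in HY only, against 26.3% of all such sites, and 5 (8.93%) in WT only, against 9.53%. At D0, 24 of 106 sites (22.6%) were open in HY only, against 21.7%, and 18 (17.0%) in WT only, against 12.1%. The D8 sites in HY only numbered 7 of 17 at Mecom, 5 of 7 at Ctbp2, 2 of 5 at Ctbp1, 2 of 12 at Prdm16, 1 of 7 at Ehmt1 and 1 of 8 at Zfp516. With peaks of a −log10 q of at least 5 alone, 8 D8 sites were in HY only and 8 in WT only, and Mecom had 9 open sites in WT and 8 in HY at D8, against 10 and 16 with all peaks. With every list cut to the length of the shortest, 12 D8 sites were in HY only and 9 in WT only.

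Prdm16 (ENSMUSG00000039410.9, chr4:153690234-154010982, minus strand, 321 kb) had 4 sites open in all libraries, sites open at D8 only towards its start, and sites open at D0 only farther downstream. At its upstream TSS cluster, an intron site 1.12 kb inside the gene (chr4:154009743-154010546) had a peak in all libraries, with pileups of 11 at D0 and 15 at D8 in WT and 16 at D0 and 12 at D8 in HY. These values overlap between the days, and the scaled folds of D8 over D0 were 1.69 in WT (interval 0.726 to 4.07) and 1.07 in HY (0.464 to 2.42). The promoter proper had peaks at D8 alone. WT D8 had a peak of pileup 11 with its summit 81 bp inside the gene (chr4:154010871-154010960), and HY D8 had one of pileup 12 with its summit 265 bp upstream (chr4:154011186-154011291). They did not overlap, so they count as separate sites of 1 genotype each although they are neighbours. When peaks up to 500 bp apart were joined, they and the site 1.12 kb inside the gene became 1 site.

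The site with the highest D8 signal at Prdm16 lay in an intron 140 kb downstream of the TSS cluster (chr4:153871137-153871469). Its pileup was 15 at D0 and 31 at D8 in WT and 19 at D0 and 34 at D8 in HY, so both D8 libraries stood above both D0 libraries despite their lower depth. The scaled pileup was 2.57-fold higher at D8 in WT (interval 1.34 to 5.11) and 2.56-fold higher in HY (interval 1.42 to 4.76), which are nearly equal. On the deposited fold enrichment its log2 change was 0.91 in WT and 0.84 in HY. A second site less than 3 kb away (chr4:153873859-153874197) went from 26 to 16 in WT and from 26 to 17 in HY, a scaled fold of 0.764 (0.383 to 1.48) and 0.936 (0.477 to 1.79). Another, 109 kb into the gene, had pileups of 10, 9, 10 and 12 in the order WT D0, WT D8, HY D0 and HY D8, with intervals of both folds that include 1. Thus 1 of the 4 Prdm16 sites open in all libraries was at least 2-fold higher at D8, in both genotypes, and none was 2-fold lower.

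The 5 sites opened in both genotypes lay from 25.8 kb upstream to 106 kb downstream of the TSS cluster. The strongest (chr4:154036596-154037331) was upstream and reached a pileup of 19 in WT and of 22 in HY at D8. Its nearest protein-coding TSS is that of Actrt2, 5208 bp away, and not that of Prdm16. In the introns, the site at 55.4 kb (chr4:153955189-153955910) reached 16 in WT and 12 in HY at D8, and the site at 106 kb (chr4:153904577-153904898), 1900 bp upstream of an internal TSS of Prdm16, had 11 and 14. The remaining opened sites were weaker, with 12 and 8 at 48.5 kb downstream and with 7 and 6 at 12.4 kb upstream. At peaks of a −log10 q of at least 5, 3 sites were opened in both genotypes.

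The 8 sites closed in both genotypes all lay farther into the gene or beyond it, from 115 kb to 343 kb downstream of the TSS cluster. The site at 212 kb (chr4:153798913-153799939, 1027 bp wide) had the highest D0 signal at Prdm16, a pileup of 32 (Poisson interval 21.9 to 45.2) in WT and 36 (25.2 to 49.8) in HY, and no peak at D8 in either. Scaled to the depth of the D8 libraries those would be 25.8 and 25.1, above the lowest called pileups of 5 and 4. It holds the AP-1 match shown in its sequence. The site at 115 kb (chr4:153895875-153896320) had 16 in WT D0 and 19 in HY D0. A peak at the internal TSS 302 kb downstream (chr4:153708759-153709065) had 7 in WT D0 and 19 in HY D0, and a peak 63 bp upstream of the TSS of the neighbouring gene Arhgef16 had 11 and 12. No D8 peak was found more than 140 kb downstream of the TSS cluster in either genotype, and the site at 1.12 kb was the only one with a D0 peak upstream of 109 kb. This split along the gene was seen after the values were known. At a −log10 q of at least 5, 4 of the sites at Prdm16 were closed in both genotypes.

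**Figure D3:**
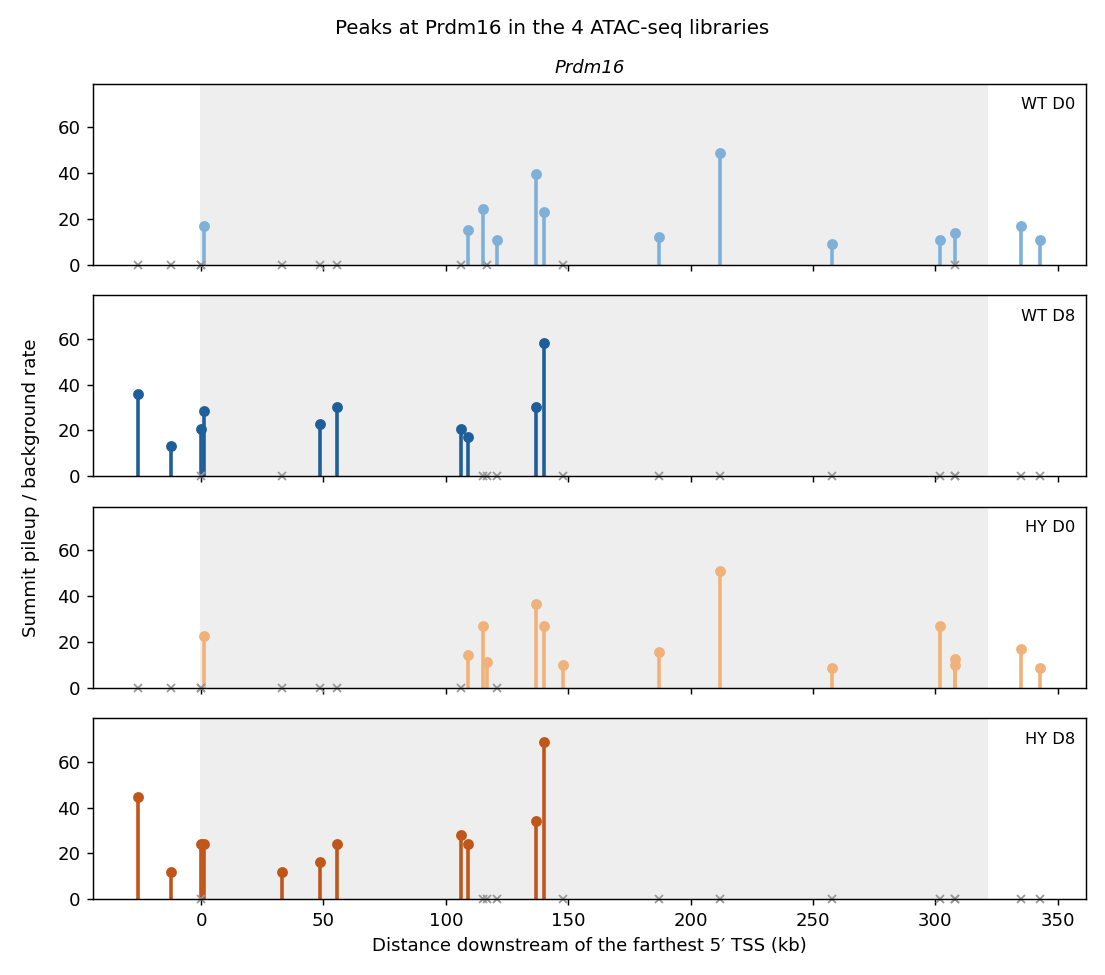
Scaled pileup (summit pileup over the background rate) of each Prdm16 site in the 4 libraries against the distance downstream of the farthest 5′ TSS in kb, with the gene body in grey and a grey cross where a library had no peak. D8 peaks end at 140 kb, where the site with the highest D8 signal stands, and the D0 peaks lie from 109 kb on except for 1 at 1.12 kb.

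Mecom (ENSMUSG00000027684.9, chr3:29850221-30446930, minus strand, 597 kb) encodes several proteins from widely spaced starts. Long forms with a PR domain begin upstream, and the shorter EVI1 forms begin far downstream. The site beside the farthest upstream TSS (chr3:30445595-30446453), whose summit lies 840 bp inside the gene in an exon annotated as untranslated, had pileups of 9 at D0 and 23 at D8 in WT and 13 at D0 and 33 at D8 in HY. Both D8 values lay above both D0 values, and the scaled pileup was 3.17-fold higher at D8 in WT (interval 1.41 to 7.79) and 3.64-fold higher in HY (1.86 to 7.53). On the deposited fold enrichment its log2 change was 0.91 in WT and 0.70 in HY. In scaled pileup this site had the largest D8 over D0 fold among the 24 sites open in all libraries. On the deposited fold enrichment the Prdm16 intron site at 140 kb had log2 changes of 0.91 in WT and 0.84 in HY, so the ranking depends on the scaling.

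The downstream promoter of Mecom did not have a higher scaled pileup at D8, though its fold intervals overlap those of the site beside the upstream TSS. The site at the start 535 kb downstream (chr3:29911770-29912204) had pileups of 14, 9, 15 and 8 in the order WT D0, WT D8, HY D0 and HY D8, a scaled fold of 0.798 in WT (0.305 to 1.98) and 0.764 in HY (0.280 to 1.92). A weaker peak 723 bp inside that start was found in WT D0 (7) and HY D8 (6). Sites near the cluster of starts 40 kb downstream, at 39.6 kb and 32.8 kb, had pileups between 9 and 16 in all libraries and folds between 0.806 and 1.30.

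In the middle of Mecom, 304 kb downstream and 6 kb upstream of an internal start, 2 neighbouring sites had higher scaled pileups at D8 wherever both days had a peak. The stronger (chr3:30143263-30143835) had pileups of 14 at D0 and 19 at D8 in WT and 19 at D0 and 29 at D8 in HY, a scaled fold of 1.68 in WT (0.801 to 3.63) and 2.19 in HY (1.18 to 4.12). WT D8 and HY D0 thus had the same pileup. On the deposited fold enrichment the change in HY was -0.06 (log2), so the direction depends on the background used. The weaker (chr3:30142714-30143023) had no WT D0 peak and a pileup of 13 in WT at D8, and of 7 at D0 and 12 at D8 in HY, with a fold of 2.45 in HY (log2 1.30, interval of the fold 0.891 to 7.36), and a log2 change of 0.09 in HY on the deposited fold enrichment. The Mecom site with the highest pileup at D0, in an intron at 442 kb (chr3:30004352-30005219), had 25 at D0 and 13 at D8 in WT and 26 and 13 in HY, with folds of 0.645 (0.303 to 1.31) and 0.716 (0.338 to 1.44).

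Mecom had 2 sites opened in both genotypes. The intron site at 528 kb (chr3:29918378-29918698), 6186 bp upstream of a start, reached 13 in WT and 12 in HY at D8. The site at 181 kb (chr3:30265606-30265928) had 12 and 13 and holds the C/EBP match shown. Of the 8 closed sites, the strongest were those at 287 kb (21 in WT D0 and 16 in HY D0), at 403 kb (17 and 9) and at 594 kb (16 and 15), all in introns. At an intergenic site 44.6 kb upstream WT had a peak at D0 only (11) and HY on both days (15 and 14). At 1 site (chr3:29914275-29914469), in an exon, HY had peaks on both days (14 and 9) and WT on neither. Among the Mecom sites with a D0 peak, 19 of 25 had none at D8 in WT (76.0%, interval 54.9 to 90.6) against 60.0% of all WT sites, and 14 of 25 in HY (56.0%, 34.9 to 75.6), against 57.1%. Both intervals include the share of all sites. With every list cut to the length of the shortest, 4 Mecom sites were opened and 2 closed in both genotypes, in place of 2 and 8.

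**Figure D4:**
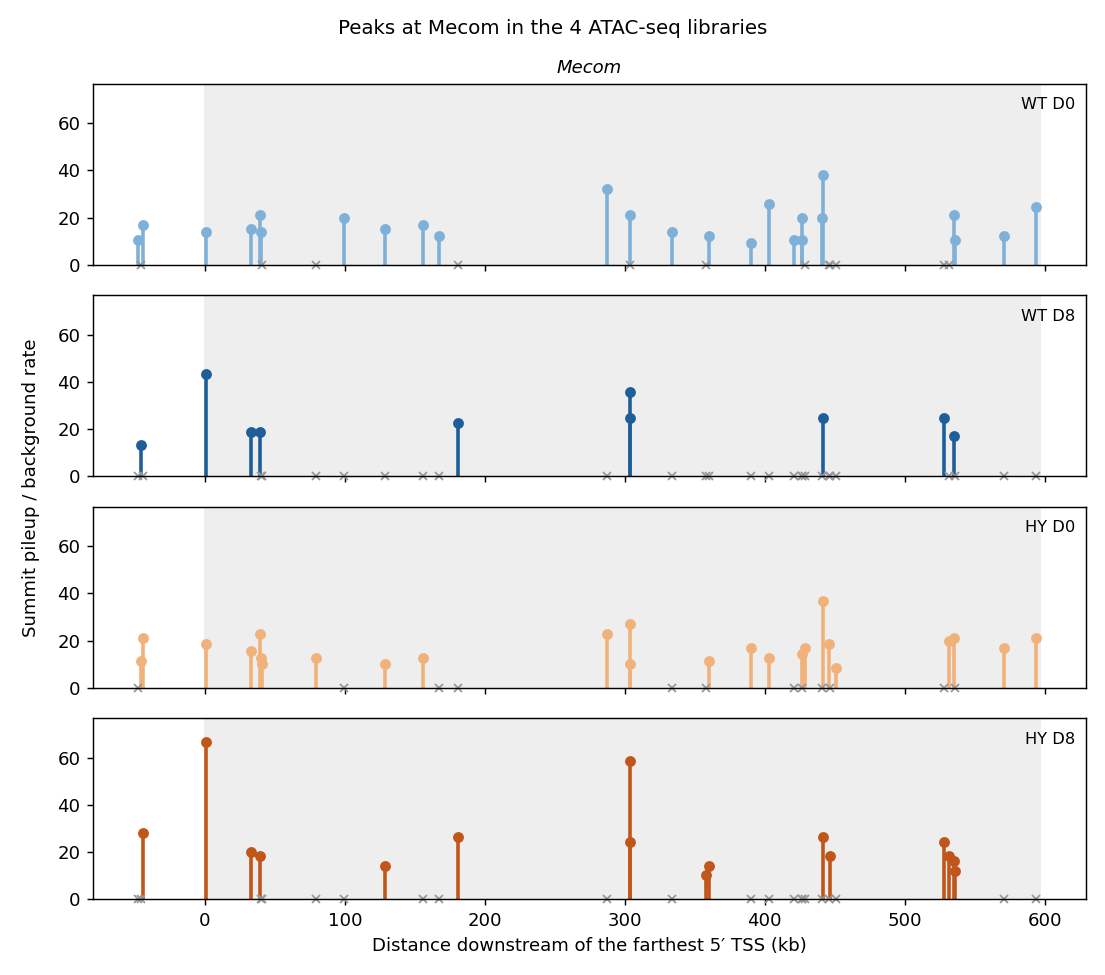
Scaled pileup of each Mecom site in the 4 libraries against the distance downstream of the farthest 5′ TSS in kb, drawn as for Prdm16, with a grey cross where a library had no peak. The site at 0.84 kb and the pair at 304 kb stand higher in both D8 panels than at D0 wherever a D0 peak was called. In WT D0 the weaker of the pair has a cross. Most other D0 sites have a cross at D8.

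Ctbp1 (ENSMUSG00000037373.8, chr5:33590372-33617618, minus strand, 27.2 kb) kept its promoter and lost signal beyond its 3′ end. The promoter site (chr5:33617572-33618145) had pileups of 44 at D0 and 31 at D8 in WT and 54 at D0 and 33 at D8 in HY, and its scaled fold was 0.875 in both genotypes (0.534 to 1.42 in WT, 0.550 to 1.37 in HY), close to the genome's median. A site 872 bp inside the gene had 18 at D0 and 14 at D8 in WT and 24 and 17 in HY, a fold of 0.965 in WT and 1.01 in HY. In the intergenic stretch past the gene, towards Spon2, 3 sites had D0 pileups from 24 to 44. The site 40.5 kb from the TSS (chr5:33576699-33577750) had pileups of 44 in WT D0 and 34 in HY D0, no peak in WT D8 and 9 in HY D8, a fold of 0.379 in HY (0.160 to 0.807). The site at 29.1 kb (chr5:33588257-33588923) had 30 and 37 at D0, no peak in WT D8 and 7 in HY D8, a fold of 0.271 (0.102 to 0.616). The site at 36.6 kb (chr5:33580649-33581190) had 24 and 32 at D0 and no peak at D8 in either genotype. So the D8 peaks of these 3 sites were weak or not called in both genotypes, and those left were in HY alone. A weaker site at 46.4 kb had 12 at D0 and 5 at D8 in both. Their nearest protein-coding TSS is that of Spon2, an extracellular matrix protein, and the assay does not assign them to a gene. On the deposited fold enrichment the change in HY at 40.5 kb was -0.22 (log2) and that at 29.1 kb -1.14. The local background in HY was also lower at D8, from 4.12 to 0.702 at 40.5 kb and from 2.56 to 0.657 at 29.1 kb. The scaled folds use the rate of the whole library and do not take this into account.

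Ctbp2 (ENSMUSG00000030970.9, chr7:140179246-140316037, minus strand, 137 kb) had a strong promoter in all libraries and, as at all sites, fewer peaks at D8 than at D0. The promoter site (chr7:140314899-140316184) had pileups of 42 at D0 and 27 at D8 in WT and 49 at D0 and 30 at D8 in HY, with folds of 0.798 (0.473 to 1.32) and 0.877 (0.537 to 1.41). Of 15 sites with a WT D0 peak, 13 had none at D8 (86.7%, interval 59.5 to 98.3), against 60.0% of all WT sites, and in HY 9 of 14 (64.3%, 35.1 to 87.2), against 57.1%. Both intervals include the share of all sites. The only other site open in WT D8 (chr7:140280200-140281127), in an intron 35.2 kb downstream with an AP-1 match near its summit, had 29 at D0 and 10 at D8 in WT and 28 at D0 and 20 at D8 in HY. Its scaled fold was 0.428 in WT (0.186 to 0.904) and 1.02 in HY (0.546 to 1.88), and HY D8 was 2.15-fold above WT D8 (interval 0.96 to 5.14).

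At 3 more Ctbp2 intron sites HY D8 had a peak and WT D8 none, while both genotypes had one at D0. They lay 117 kb (16 in WT D0, 27 in HY D0 and 6 in HY D8) and 91.6 kb (10, 12 and 8) downstream of the TSS, with the other between them (12, 20 and 7). The first had a scaled fold of 0.318 in HY (0.107 to 0.787). The pileups of 6 to 8 lie near the lowest that were called, so the absence of a WT D8 peak leaves room for a similar signal below the threshold. A peak 2.57 kb inside the gene, 417 bp from an internal start, was found in HY D8 alone with a pileup of 16, and 1 at 30.3 kb in WT D0 (10) and HY D8 (7). Weak peaks of 5 and 7 at an internal promoter 11 kb downstream were found in HY D0 alone. The strongest of the 6 closed sites, at 62.0 kb, 29.9 kb and 83.5 kb, had pileups of 17, 14 and 10 in WT D0 and 17, 18 and 12 in HY D0. When a library counted as open only where its peak covered at least 50% of the strongest peak, WT D8 had 0 open Ctbp2 sites and HY D8 had 4.

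**Figure D5:**
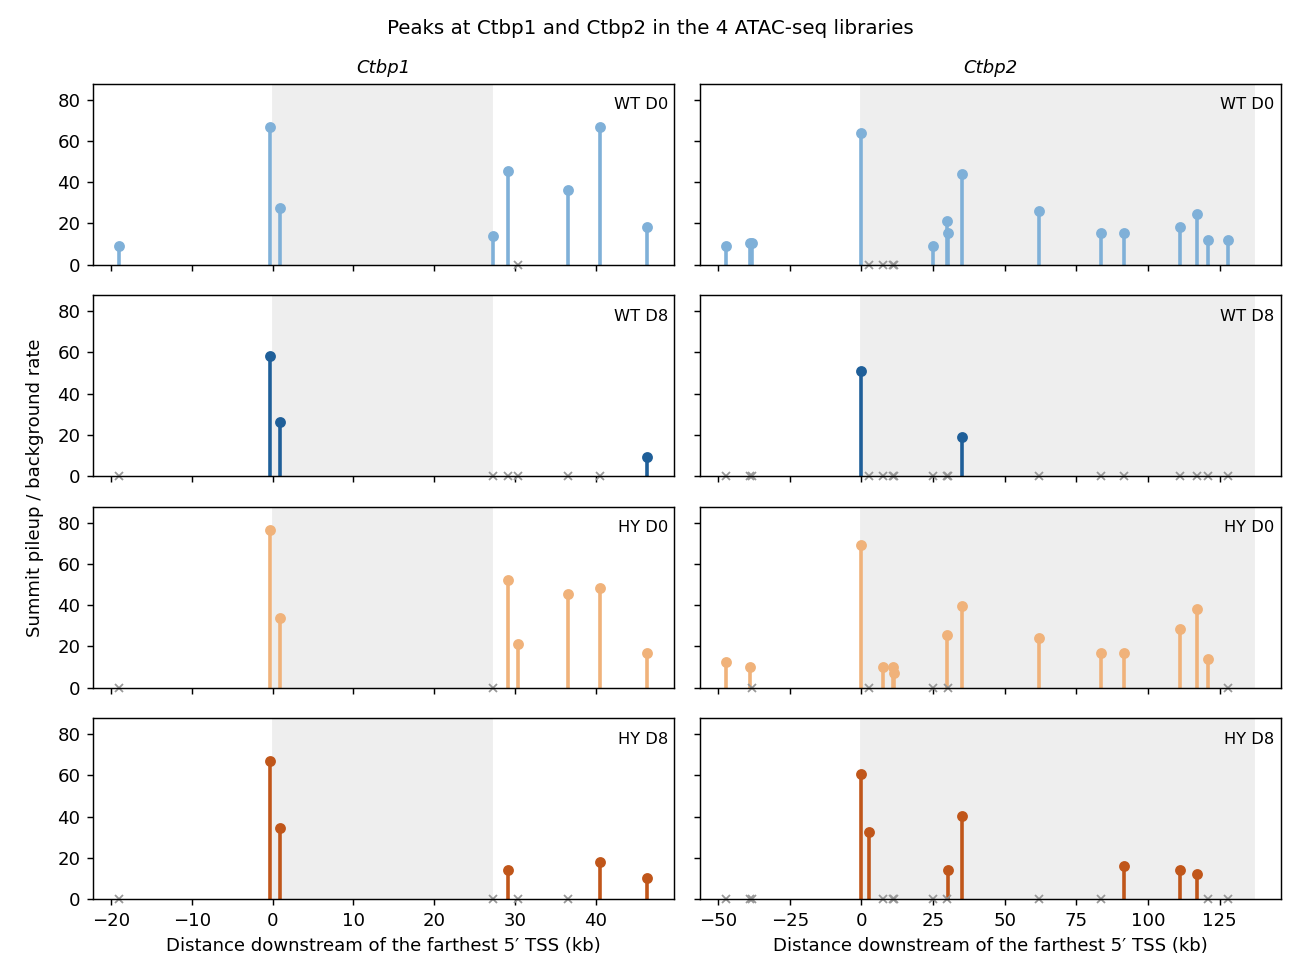
Scaled pileup of each Ctbp1 site (left) and Ctbp2 site (right) in the 4 libraries against the distance downstream of the farthest 5′ TSS in kb, with the gene body in grey and a grey cross where a library had no peak. The promoter peaks at 0 kb stand in every panel, while the Ctbp1 sites at 29.1 kb, 36.6 kb and 40.5 kb and most Ctbp2 intron sites are lower or crossed at D8.

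Ehmt1 (ENSMUSG00000036893.9, chr2:24646289-24775129, minus strand, 129 kb) changed little at its own start. Its promoter site (chr2:24774548-24775562) had pileups of 21 at D0 and 25 at D8 in WT and 29 at D0 and 24 at D8 in HY, with overlapping values between days and folds of 1.48 in WT (0.794 to 2.78) and 1.19 in HY (0.660 to 2.11). The other sites with a peak in all libraries belonged to the promoters of the neighbours Arrdc1 (41, 29, 48 and 39), Zmynd19 (36, 38, 49 and 36) and Wdr85 (26, 15, 26 and 16), ordered as WT D0, WT D8, HY D0 and HY D8, and all had folds between 0.716 and 1.31. Within the gene body there was no D8 peak apart from the promoter and 1 weak peak of 5 in HY D8. The closed sites included an intron site 20 kb downstream (16 in WT D0 and 18 in HY D0), a site at an internal promoter 67.0 kb downstream (10 and 12), an intron site at 48.1 kb (7 and 6) and a site inside the neighbour Cacna1b (10 and 12). Beside the Cacna1b TSS a peak was found in WT on both days (14 and 8) and in HY at D0 only (18). The site opened in both genotypes (9 in WT and 9 in HY at D8) is 30.6 kb upstream, inside Zmynd19, and merges with the Zmynd19 promoter when peaks up to 500 bp apart are joined. Only 8 of the 17 sites have the TSS of Ehmt1 as their nearest protein-coding start.

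Zfp516 (ENSMUSG00000058881.6, chr18:83080271-83174706, plus strand, 94.4 kb) had several strong sites around its start, with lower signal at D8 at the promoter site nearest its upstream TSS. The site 333 bp upstream of the TSS (chr18:83079849-83080303) had pileups of 35 at D0 and 15 at D8 in WT and 41 at D0 and 16 at D8 in HY. Both D8 values were under both D0 values, and the scaled folds were 0.532 in WT (0.270 to 1.00) and 0.559 in HY (0.293 to 1.02). They were short of 2-fold and lower than the genome's median in their genotype, which both intervals include. A second promoter site, 926 bp upstream, had 25 in WT D0, 37 in HY D0 and 19 in HY D8 and no peak in WT D8. At the internal start, the promoter site 3.34 kb downstream had 23, 22 and 30 in WT at D0, WT at D8 and HY at D0 and no peak in HY at D8, and a weaker one at 2.93 kb was found in WT D0 alone (19). Between the starts, a site 2.33 kb downstream had 42 at D0 and 28 at D8 in WT and 46 at D0 and 32 at D8 in HY, with folds of 0.827 and 0.996. A site 8.19 kb upstream had 24 at D0 and 17 at D8 in WT and 39 and 19 in HY.

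Farther into Zfp516 the intron site at 43.2 kb (chr18:83123215-83123844) had 30 at D0 and 16 at D8 in WT and 41 at D0 and 12 at D8 in HY, a scaled fold of 0.662 in WT (0.337 to 1.25) and 0.419 in HY (0.201 to 0.813). The site at 72.6 kb (chr18:83152485-83153154) had 28 at D0 and 10 at D8 in WT, and 17 at D0 and no peak at D8 in HY, a fold of 0.443 in WT (0.192 to 0.940). The site at 65.2 kb had 17, 21, 21 and 17 in the order WT D0, WT D8, HY D0 and HY D8, with no clear change. The closed site lay 43.0 kb upstream of the TSS, with 18 in WT D0 and 16 in HY D0 and an AP-1 match. All 15 sites have a TSS of Zfp516 as their nearest protein-coding start. No Zfp516 site was opened in both genotypes, of 15 sites, which allows a share of up to 21.8% (exact interval).

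In the wider brown and beige programme, 20 listed genes had 325 sites by the same rule, of which 13.8% were opened in both genotypes and 14.5% closed in both. Ucp1, the uncoupling protein of thermogenic fat, had 3 sites in each D0 library, 7 in WT and 6 in HY at D8, with 3 of its 7 sites opened in both. Ppara, a nuclear receptor for fatty acids, had 6 opened sites of 17 and 1 closed. Pparg, the receptor that drives adipocyte differentiation, had 3 opened and 3 closed of 18. Tle3, a co-repressor, had 4 opened and 8 closed of 26. Kdm1a, a histone demethylase, had 0 opened sites of 19, Med1, a Mediator subunit, 0 of 7, and Ehmt2, the sister enzyme of EHMT1, 1 of 22. Cidea, a lipid droplet protein of brown fat, had 0 opened and 3 closed of 10. Over all sites of the genome these shares were 6.00% and 24.6%. The opened share of the 121 member sites was 6.61% (interval 2.90 to 12.6), and that of Prdm16 alone 20.8% (7.13 to 42.2).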

How the data were processed

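ATAC-seq was performed by the authors on 4 libraries, 1 per group as the labels give it, and 1 peak list per library was deposited. Per the study's methods, reads were processed as for its ChIP-seq, with trimming, alignment to mm9, removal of PCR duplicates and peak calling. For ChIP-seq the methods name HOMER as the caller for JMJD1A and MACS3 for transcription factors. Which of them served ATAC-seq is not given in the sources used here, and the deposited columns fit the formulas of MACS. Versions, threshold and any Tn5 shift are not given in the sources used here; an unshifted end moves a summit by a few bp. The deposited enrichment is a fold (ratio) of summit pileup plus 1 over local background plus 1, not normalised between libraries. The authors' −log10 p and −log10 q are per summit. The deposited score column was not used for any result.

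Pileup and local background were solved for each peak from its fold and −log10 p, to within 0.002, for 100% of peaks, and the procedure was tested on simulated data. The lowest local background of a list is its background rate. Absolute depth is unknown. A promoter runs from 1000 bp upstream to 100 bp downstream of a TSS (NCBIM37, GENCODE M1). Peaks were handled with pandas 2.3.3, NumPy 2.4.6, SciPy 1.17.1 and pysam 0.24.0. Named were all promoter sites and, per gene, the up to 3 sites with the highest scaled pileup among those opened in both genotypes, closed in both, open on both days in 1 genotype only, and open in all libraries with a change of at least 2-fold the same way in both genotypes. Other sites were named after their values were seen. The members and lists were chosen with earlier results of these data known. The alternatives tried were another threshold, list length, window, overlap and scaling. Of the 3 genes found most like Prdm16, 1 is not reported here.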

Additional observations from a re-analysis of the deposited data

Results flagged for a closer look

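The 3 sites below, of the 24 open in all 4 libraries, changed in opposite directions from D0 to D8 in WT and HY in pileup scaled by the background rate. With 1 library per group the difference was not tested. In unscaled pileup all 3 were lower at D8 in both genotypes, and when scaled by the median at sites open in all libraries only the Ctbp2 site had opposite signs (log2 -0.85 in WT and 0.24 in HY). In deposited fold enrichment the Ctbp2 site (-0.95 in WT and 0.03 in HY) and the Arrdc1 promoter (-0.36 and 0.17) had opposite signs, and the Ctbp1 site was at -0.00 and 0.03. The directions depend on the scaling. At the Ctbp2 intron site 35.2 kb downstream of the TSS the log2 change of the scaled pileup was -1.22 in WT and 0.03 in HY, on pileups of 29, 10, 28 and 20 in the order WT D0, WT D8, HY D0 and HY D8. At the Arrdc1 promoter, 15.6 kb upstream of Ehmt1, it was -0.19 in WT and 0.22 in HY. At the Ctbp1 site 872 bp inside the gene it was -0.05 in WT and 0.02 in HY. For the last 2 sites the intervals of both changes include 0, and for the Ctbp2 site that of WT does not.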

How the results depend on the processing

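Of 68 counts and shares recomputed under another setting, 38 stayed within 1.5 times the reported count or within the interval of the share, and 30 moved. Of 204 further values, for single genes and sites, 141 stayed, 62 moved and 1 reversed. With a library counted as open only where its peak covered 50% of the strongest peak, 80.5% of WT D0 sites and 72.0% of HY D0 sites had no D8 peak. At a −log10 q of at least 5, 5 sites were opened in both genotypes, 8 D8 sites were in HY only and 8 in WT only, 1 site was 2-fold higher in WT and 2 were 2-fold lower in HY. With every list cut to the length of the shortest there were 70 sites, 11 closed in both, losses of 47.4% in WT and 37.8% in HY, and 12 D8 sites in HY only and 9 in WT only. Within 10 kb, or with sites nearest to the member's own TSS, 5 sites were opened in both and 3 D8 sites were in WT only. Within 100 kb 8 were in WT only, and with peaks up to 500 bp apart joined, a setting chosen after seeing the data, 3 were. Without depth scaling 1 site was 2-fold higher in HY, and 4 in WT and 9 in HY were 2-fold lower. Scaled by the median at sites open in all 4 libraries, 4 sites were higher in WT and 0 lower. On the deposited fold enrichment 0 were higher in either genotype, and 0 in WT and 2 in HY lower. At 1.5-fold 5 were higher in WT, and 6 in WT and 7 in HY lower. The median log2 change over all sites ran from -0.47 to 0.22 in WT and from -0.70 to 0.03 in HY across the scalings. The log2 change at the Mecom site 304 kb downstream reversed to -0.06 in HY on the deposited fold enrichment. At Prdm16 4 sites were closed in both genotypes at a −log10 q of at least 5, and 3 with all lists cut to the shortest. The causes were not tested, and no share over all sites stands beside the values of the other settings. The depth of a single library, and pileups near the lowest called, limit what can be said of any site without a peak.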

Other observations

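Of the 6 motifs, AP-1 (TGANTCA) was matched within 100 bp of the summit at 21 of 121 sites (17.4%), against 22.0% of all sites. Among the closed sites it was matched at 9 of 28 (32.1%), against 31.9% of all closed sites, and among the opened sites at 0 of 8, against 7.11%. C/EBP (TTGCNNAA) was matched at 1 of the 8 opened sites, against 26.9% of all opened sites, and at 4 of the 28 closed sites, against 8.83%. The EBF motif, TCCC and GGGA separated by 2 bases, was matched at 4 sites (3.31%, against 1.36%), among them the Mecom site beside the farthest upstream TSS that was higher at D8. The PPAR:RXR motif, a repeat of AGGTCA separated by 1 base, was matched at 1 Mecom intron site with a peak in HY D8 only (0.826%, against 0.0288%). CTCF was matched at 2 sites (1.65%, against 3.12%) and NFI at 0 (0%, against 1.24%). A match is a description of the letters in the window and not a bound site.

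Among the genes whose summed scaled pileup was divided among the libraries most like that of Prdm16, of 8691 genes with at least 10 sites, were BC096441 and Tnfsf12, which share the same sites (distance 0.00356). For Prdm16 the shares were 22.0% at D0 and 24.3% at D8 in WT, and 26.2% and 27.5% in HY. For Ctbp2 they were 34.5%, 7.84%, 36.3% and 21.4% in the same order. A site without a peak in a library added 0 to its sum, although its pileup is unknown. The likeness is over 4 libraries and describes how the signal was divided between them.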
